A study of Mus musculus with 6 samples.

Results

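Translation initiation factors are the proteins that place the small ribosomal subunit, the initiator tRNA and an mRNA together at a start codon. Their mRNA levels were measured by RNA-seq in activated mouse B cells with and without hnRNPL, an RNA-binding protein that takes part in splicing and other steps of mRNA processing. The genes were chosen by name, as every gene of the deposited expression table whose symbol begins with Eif and a digit from 1 to 6. The eIF2 kinases *Eif2ak1* to *Eif2ak4*, the Y-linked *Eif2s3y* and entries marked as pseudogenes were left out. This gave 51 of the 55421 genes in the table, of which 49 were detected and tested. The remaining pair, *Eif4e1b*, a paralog of the cap-binding protein gene, and *Eif2c5*, whose symbol matches by its letters alone since Eif2c is an older name for Argonaute genes, had no read in any of the 6 libraries.

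In the textbook account, eIF2 carries the initiator methionyl-tRNA to the small subunit, where eIF1, eIF1A and eIF3 hold the complex open for scanning. The eIF4F complex, made of the cap-binding protein eIF4E, the scaffold eIF4G and the helicase eIF4A, brings in the capped mRNA with the help of eIF4B and eIF4H, and eIF5 and eIF5B complete start codon selection and subunit joining. The exchange factor eIF2B recharges eIF2, while the 4E-binding proteins, which mTORC1 phosphorylates, keep eIF4E from eIF4G. B cells raise their protein synthesis strongly when they leave the resting state.

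The libraries came from splenic B cells of 3 control mice (WT) and 3 mice with floxed *Hnrnpl* alleles (*Hnrnpl* F/F, hnRNPL-deficient). All 6 mice carried *CD21-cre*, which is active mainly in mature B cells, and the *Rosa* mT/mG reporter, which switches a cell from Tomato to GFP after Cre has acted. The cells were cultured for 24 h with LPS at 5 µg/ml and IL-4 at 5 ng/ml, a combination that activates B cells in culture, and GFP+ cells were sorted before polyadenylated RNA was sequenced. GFP reports Cre activity and not the deletion itself, the mice were of both sexes, and the age of each mouse was not given in the labels. The libraries held between 40395186 and 75180749 reads on genes, the fewest in hnRNPL-deficient library 3.

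*Hnrnpl* itself had 24371, 25579.7 and 24174 normalized counts in WT libraries 1 to 3 and 2178, 1519 and 1297 in hnRNPL-deficient libraries 1 to 3, or 6.74% of the WT mean (log2 fold change -3.93, adjusted p = 2.23e-05, limma). The B cell markers *Cd79a*, *Cd79b*, *Ms4a1*, *Pax5* and *Cd22* were abundant in every library, with none called different between groups, and the 5 T cell markers summed to at most 11.7. Of 5 myeloid markers 1 differed, *Adgre1*, with 235.6 to 315.1 in WT and 1217 to 1369 in hnRNPL-deficient libraries. *S100a8* was at 0 in all libraries and *Lyz2* reached at most 2. Erythroid markers summed to 5.19 to 18.6 in WT and 16.2 to 27.3 in hnRNPL-deficient libraries, and of 4 plasma cell markers 1 was lower, *Jchain*. The part of these markers in the results on initiation factor genes was not tested. *Xist* was high in WT library 3 and hnRNPL-deficient library 2 alone, and the other 4 libraries held Y-linked transcripts.

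Most initiation factor mRNAs had a somewhat lower mean in hnRNPL-deficient B cells, and 8 of the 49 tested fell (16.3%), while none rose. A gene passed the test at an adjusted p under 0.1 from limma at any size of change, which 7.97% of all 17640 tested genes did in the lower and 10% in the higher direction. At an unadjusted p under 0.05 there were 23 of the 49, against 27.4% of all tested genes, and of these 23 only *Eif4e3* was higher. On the reads of 5 libraries edgeR and DESeq2 passed 5 and 9 genes, all lower. Of the 8 genes past limma they kept 4 and 5. The others were *Eif5a* with edgeR, and *Eif5a*, *Eif4a1*, *Eif4g1* and *Eif4e2* with DESeq2. The 8 genes were *Eif4b* and *Eif4a2* of the mRNA-loading machinery, *Eif4ebp2* among the eIF4E inhibitors, *Eif1a* and *Eif5b* of the scanning and joining steps, *Eif2a* and *Eif2s2* of tRNA delivery, and the eIF3 subunit gene *Eif3j2*. Where the change also had to reach 1.5-fold, here referred to as called, 1 member was lower, *Eif4b*, and none was higher, against 4.08% and 7.28% of all genes. Without a threshold, the log2 fold change was below 0 for 42 of the 49 genes, or 85.7%, against 52.7% of all tested genes. The 3 WT and 3 hnRNPL-deficient values did not overlap for 22 genes that were lower (44.9%, against 16.3% of all genes) and for 1 that was higher, *Eif4e3* (against 17.7%).

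**Figure D1:**
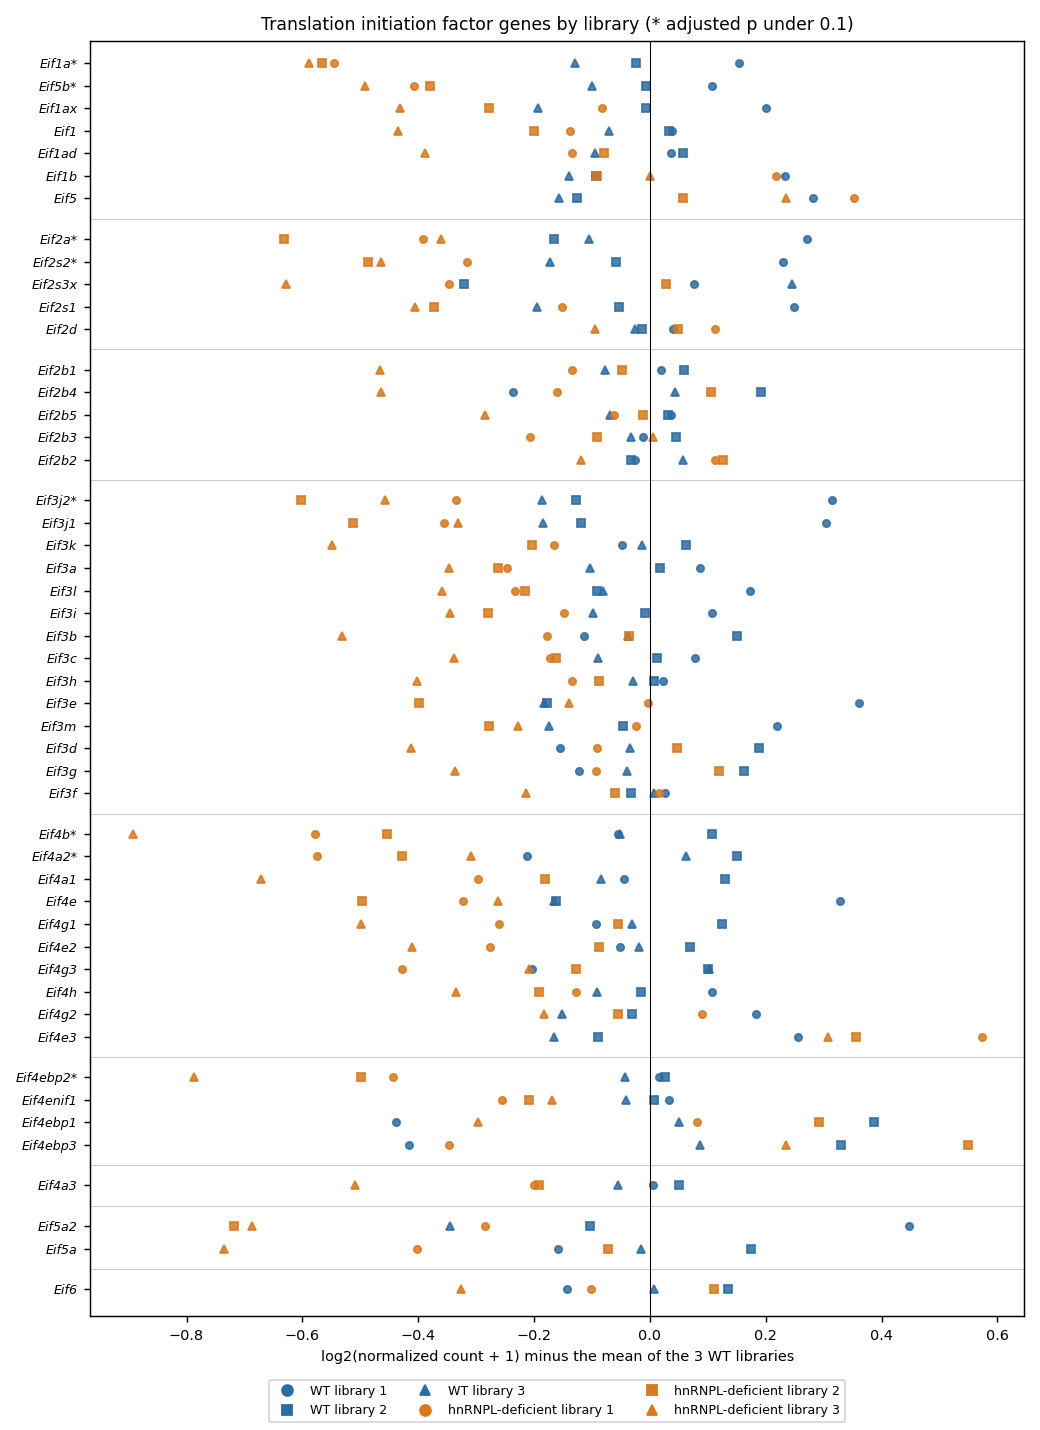
Each row is 1 of the 49 tested initiation factor genes, grouped by role, and each point is 1 library, with WT in blue and hnRNPL-deficient in orange. The x axis is log2(normalized count + 1) minus the mean of the 3 WT libraries, an asterisk marks the 8 genes with an adjusted p under 0.1, and most orange points lie left of 0, with hnRNPL-deficient library 3 lowest for 32 genes.

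The median log2 fold change of the 49 genes was -0.25, with a range from -0.64 to 0.41, beside a median of -0.03 for all tested genes. Initiation factor genes are abundant, and among the 7102 tested genes that averaged 1000 normalized counts or more the median was -0.08, with 61.1% below 0 and 12.4% past the test in the lower direction. At that level 47 initiation factor genes remained, with a median of -0.26, 89.4% below 0 and 17% past the test. Together the 51 genes took 1.28%, 1.27% and 1.24% of all normalized counts in WT libraries 1 to 3 and 1.13%, 1.14% and 1.05% in hnRNPL-deficient libraries 1 to 3, so that the groups did not overlap. In a bulk sample, fewer cells of a type and less RNA per cell cannot be told apart, and values scaled to the library give no total amount of mRNA per cell.

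**Figure D2:**
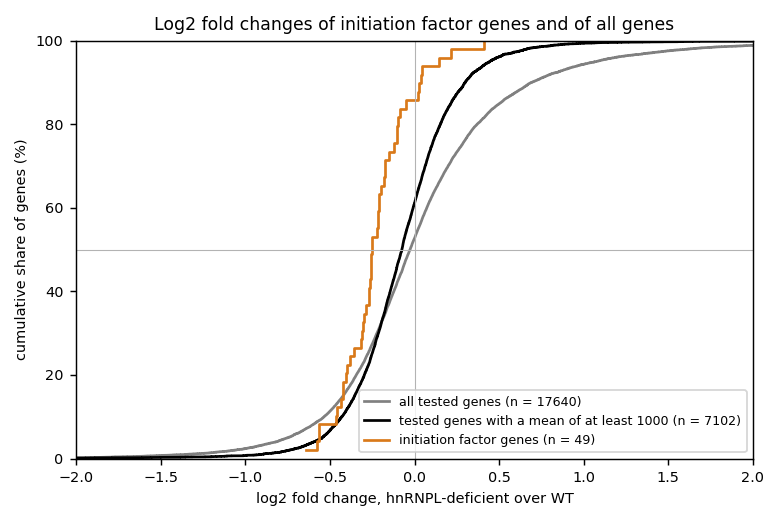
Cumulative share of genes (y axis, percent) at or below each log2 fold change, hnRNPL-deficient over WT (x axis, shown from -2 to 2), for all 17640 tested genes in grey, the 7102 that averaged 1000 normalized counts or more in black and the 49 initiation factor genes in orange. The orange line crosses the middle at -0.25, left of the grey line at -0.03 and the black line at -0.08.

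Single libraries carried part of this difference. WT library 1 was the highest of the 6 libraries for 24 genes and hnRNPL-deficient library 3, the shallowest, was the lowest for 32. The median distance of the 49 genes from their WT means was -0.36 in hnRNPL-deficient library 3, -0.17 in library 1 and -0.16 in library 2, on the log2 scale. Over all tested genes that median was -0.015 in hnRNPL-deficient library 3, -0.015 in library 1 and 0.0037 in library 2. Without hnRNPL-deficient library 3 the median log2 fold change of the genes was -0.17, and without both that library and WT library 1 it was -0.15, with 7 genes past the test in the lower direction and 1, *Eif4e3*, in the higher. Quantile normalization, which gives all libraries the same distribution of values, brought the median to -0.13 and left 5 genes past the test.

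*Eif4b*, whose product stimulates the helicase activity of eIF4A and is a substrate of S6 kinase, showed the largest decrease of the 49. The gene lies on chr15:102073773-102097173 of GRCm38, plus strand. Its normalized counts were 23979.7, 26861 and 24037 in WT and 16688, 18189 and 13420 in hnRNPL-deficient libraries. All hnRNPL-deficient values were below all WT values, and library 3 was the lowest. The mean went from 24959 ± 1647 to 16099 ± 2438 (SD, n = 3 each), a 1.56-fold decrease (log2 fold change -0.64, SE 0.13, adjusted p = 0.0166, limma). Without hnRNPL-deficient library 3 the log2 fold change was -0.52 and with quantile normalization -0.50, both under 1.5-fold with the test still passed.

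*Eif4a2*, one of 2 genes for the eIF4A helicase, had 11076, 14245 and 13407 normalized counts in WT and 8613, 9540.1 and 10357 in hnRNPL-deficient libraries. Its groups did not overlap, with 1 WT value close to the highest hnRNPL-deficient value, and it fell by 0.44 on the log2 scale (SE 0.12, adjusted p = 0.0542, limma). The gene no longer passed the test when WT library 2 or 3 or hnRNPL-deficient library 1 or 2 was left out. The more abundant paralog *Eif4a1* went from 49253, 55529.9 and 47866 to 41329.5, 44804 and 31894, also without overlap, but with an adjusted p of 0.124 (log2 fold change -0.38, limma). It is less certain, as 20.8% of its 100-base transcript windows also occur in the pseudogene *Eif4a-ps4*. The ratio of *Eif4a2* to *Eif4a1* counts was 0.254 ± 0.0277 in WT and 0.249 ± 0.0659 in hnRNPL-deficient libraries (SD, n = 3 each) and overlapped between groups (exact two-sided permutation p = 0.8).

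Among the cap-binding proteins, *Eif4e*, the gene for the main cap-binding subunit, had 20364, 14504 and 14462 normalized counts in WT and 12969.6, 11498 and 13531 in hnRNPL-deficient libraries. The groups did not overlap, but WT library 1 stood well above the rest and the adjusted p was 0.155 (log2 fold change -0.36, limma). *Eif4e2*, which encodes a cap-binding protein known for translational repression, was also lower without overlap (log2 fold change -0.26, adjusted p = 0.174, limma). *Eif4e3*, a divergent family member, was the single gene whose hnRNPL-deficient values all exceeded WT, with 604.6, 475.5 and 451.2 in WT and 753.7, 648.2 and 626.4 in hnRNPL-deficient libraries. Its log2 fold change of 0.41 did not pass the test (SE 0.16, adjusted p = 0.135, limma). Without WT library 1 it was 0.54 with an adjusted p of 0.0667, and without that library and hnRNPL-deficient library 3 it reached 0.59 with an adjusted p of 0.0389. The ratio of *Eif4e3* to *Eif4e* was 0.0312 ± 0.00155 in WT and 0.0536 ± 0.00638 in hnRNPL-deficient libraries (SD, n = 3 each), with no overlap. The exact two-sided permutation p of 0.1 is the smallest that 3 against 3 libraries allow, or 0.3 after adjustment over the 6 paralog pairs compared.

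None of the eIF4G scaffold genes passed the test in limma, while *Eif4g1* passed with DESeq2 on 5 libraries (adjusted p = 0.0844). *Eif4g1*, the main eIF4G gene, had 36450.5, 42368 and 38076 normalized counts in WT and 32454, 37453 and 27534 in hnRNPL-deficient libraries, with overlap (log2 fold change -0.27, adjusted p = 0.223, limma). Its paralog *Eif4g3* stood at -0.25 (adjusted p = 0.224) and *Eif4h*, the eIF4B-related helicase cofactor, at -0.22 without overlap (adjusted p = 0.204). *Eif4g2*, also known as DAP5, which lacks the eIF4E-binding region, was the closest to 0 of the group with -0.05 (adjusted p = 0.832), and its sign turned to 0.0053 with libraries scaled to equal totals and to 0.0027 with quantile normalization. In all, 2 of the 10 tested genes of eIF4F and its helpers fell (20%, against 7.97% of all tested genes). Of the 10, 9 lay below 0 (90%, against 52.7%), and 6 were lower without overlap (60%, against 16.3%).

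**Figure D3:**
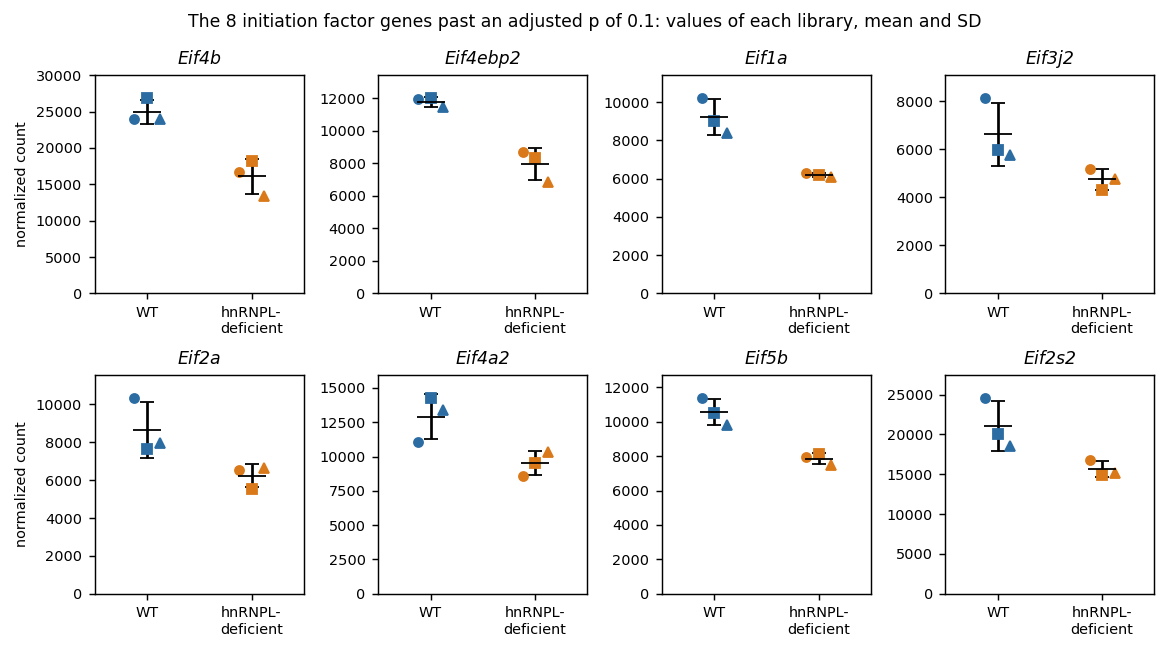
Normalized counts (y axis, from 0) of the 8 genes with an adjusted p under 0.1, in each WT library (blue) and hnRNPL-deficient library (orange), with the group mean and SD in black. Circles, squares and triangles are libraries 1, 2 and 3, and in each panel the 3 orange points lie below the 3 blue points.

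The 4 genes for proteins that bind eIF4E and regulate it were uneven. *Eif4ebp2* (chr10:61428491-61452661 of GRCm38, minus strand) had the most abundant mRNA of the 4E-binding protein genes, by normalized counts per kilobase of transcript. It had 11916, 12006 and 11437 normalized counts in WT and 8669, 8336 and 6827 in hnRNPL-deficient libraries. The gap between groups was wider than the spread within either, and the gene fell by 0.58 on the log2 scale (SE 0.11, adjusted p = 0.0142, limma), just short of 1.5-fold. It passed 1.5-fold when WT library 3 or either of hnRNPL-deficient libraries 1 and 2 was left out. *Eif4ebp1*, the paralog most often studied as an mTORC1 substrate, had 1281, 2271 and 1798 in WT and 1837, 2126 and 1413 in hnRNPL-deficient libraries, with overlapping groups (log2 fold change 0.03, adjusted p = 0.954, limma), and its sign turned in several alternatives. The ratio of *Eif4ebp2* to *Eif4ebp1* was 6.98 ± 2.08 in WT and 4.49 ± 0.497 in hnRNPL-deficient libraries (SD, n = 3 each), without overlap, at the smallest exact permutation p of 0.1 (0.3 adjusted over the 6 pairs). *Eif4enif1*, whose product 4E-T takes eIF4E to processing bodies, had 8873 to 9344 in WT and 7645 to 8118 in hnRNPL-deficient libraries (log2 fold change -0.21, adjusted p = 0.148, limma). *Eif4ebp3* was barely detected, with 19.7 to 33.7 and 20.7 to 39.4, and 62.8% of its windows also belong to an overlapping read-through gene.

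At the scanning step, *Eif1a*, one of the mouse genes for eIF1A, had the smallest adjusted p of the tested initiation factor genes. It had 10220.6, 9041 and 8402 normalized counts in WT, while hnRNPL-deficient libraries held 6297, 6211 and 6109. The 3 hnRNPL-deficient values differed by little and lay well below WT, with a log2 fold change of -0.57 (SE 0.10, adjusted p = 0.00989, limma), and without WT library 3 the decrease passed 1.5-fold. *Eif1ax*, the X-linked gene for the same factor, had 7015, 6074 and 5338 in WT and 5763, 5034 and 4527 in hnRNPL-deficient libraries, with overlap (log2 fold change -0.26, adjusted p = 0.239, limma). *Eif1*, which guards start codon fidelity, was lower without overlap (log2 fold change -0.26, adjusted p = 0.161), and 11.2% of its windows recur in other genes. Its paralog *Eif1b* stood at 0.04 with overlapping groups and its sign turned in some leave-one-out fits, and the ratio of *Eif1b* to *Eif1* was 0.113 ± 0.0138 in WT and 0.139 ± 0.0160 in hnRNPL-deficient libraries (SD, n = 3 each, exact permutation p = 0.2). *Eif1ad*, named for its eIF1A-like domain, was at -0.20 (adjusted p = 0.290).

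*Eif5b* encodes the GTPase that joins the large subunit, and had 11363, 10502.5 and 9838 normalized counts in WT and 7954, 8112.5 and 7503 in hnRNPL-deficient libraries. It fell by 0.43 on the log2 scale (SE 0.09, adjusted p = 0.0242, limma), with the groups far apart. *Eif5*, whose product activates GTP hydrolysis by eIF2 at the start codon, had a higher mean without hnRNPL, with 52347, 39469 and 38624.5 in WT and 54949, 44781 and 50673 in hnRNPL-deficient libraries. WT library 1 overlapped the hnRNPL-deficient values, and the log2 fold change of 0.21 did not pass the test (SE 0.14, adjusted p = 0.378, limma). Of the 7 genes at the scanning and joining steps 2 fell (28.6%, against 7.97% of all tested genes) and 5 lay below 0 (71.4%, against 52.7%).

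For tRNA delivery, *Eif2s2*, the gene for the beta subunit of eIF2, had 24537, 20091 and 18557 normalized counts in WT and 16810.2, 14934 and 15157 in hnRNPL-deficient libraries. It fell by 0.42 on the log2 scale (SE 0.12, adjusted p = 0.0604, limma). The gene no longer passed the test without WT library 1 or 2 or hnRNPL-deficient library 2 or 3. *Eif2s1*, for the alpha subunit that stress kinases phosphorylate, had 19209, 15592 and 14131 in WT and 14568, 12485 and 12208 in hnRNPL-deficient libraries. Its groups overlapped through a single pair of values, and its log2 fold change of -0.31 did not pass (SE 0.13, adjusted p = 0.174, limma). *Eif2a*, whose product delivers initiator tRNA independently of eIF2, had 10329, 7629 and 7961 in WT and 6524.5, 5527 and 6667 in hnRNPL-deficient libraries, and fell by 0.46 (SE 0.14, adjusted p = 0.0654, limma). WT library 1 was far above the other WT libraries. *Eif2a* no longer passed the test without WT library 1 or 3 or hnRNPL-deficient library 1 or 2. *Eif2d*, for a factor that acts in non-canonical initiation and ribosome recycling, had 2407 to 2518 in WT and 2294.5 to 2650 in hnRNPL-deficient libraries (log2 fold change 0.02, adjusted p = 0.906).

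The gamma subunit gene *Eif2s3x* is X-linked and has the Y-linked partner *Eif2s3y*, and its level was read beside the sex-linked transcripts. *Eif2s3x* had 34305, 26041 and 38598 normalized counts in WT and 25594, 33201 and 21067 in hnRNPL-deficient libraries, highest in each group in the library with *Xist*. Over all libraries the values of both groups overlapped, with a log2 fold change of -0.32 (SE 0.19, adjusted p = 0.334, limma), or -0.34 with *Xist* as a covariate (adjusted p = 0.186). Within the libraries holding Y-linked transcripts, 2 WT and 2 hnRNPL-deficient, the hnRNPL-deficient mean was 77.3% of WT, and in the single pair with *Xist* it was 86.0%. *Eif2s3y* in the same Y-bearing libraries had 4088.5 and 3496.5 in WT and 2376 and 2651 in hnRNPL-deficient libraries, 66.3% of WT. The sum of both genes was 38393, 29538 and 38599 in WT and 27969.5, 33202 and 23718 in hnRNPL-deficient libraries, still with overlap. A pseudogene, *Gm2223*, holds 33.7% of the *Eif2s3x* windows, so the exact level is uncertain.

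**Figure D4:**
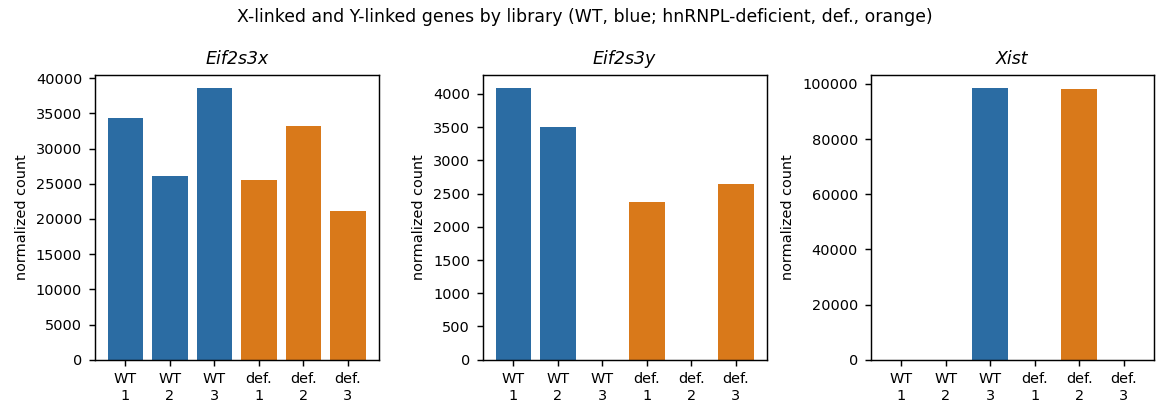
Normalized counts (y axes, from 0) of *Eif2s3x*, *Eif2s3y* and *Xist* in each of the 3 WT libraries (blue bars) and 3 hnRNPL-deficient libraries (orange bars, def.). *Eif2s3x* reached 38598 and 33201 in the 2 libraries with *Xist*, and *Eif2s3y* was at 1.5 or less there.

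None of the 5 eIF2B genes passed the test, which 7.97% of all tested genes did in the lower direction. At an unadjusted p under 0.05 (limma) none passed either, against 27.4% of all tested genes. The groups overlapped for each, while 16.3% of all tested genes were lower and 17.7% higher without overlap. Of the 5, 4 lay below 0 (80%, against 52.7%), with a median of -0.12. *Eif2b1*, for the regulatory alpha subunit, had 2373, 2442 and 2219 normalized counts in WT and 2134, 2265 and 1695.5 in hnRNPL-deficient libraries, a log2 fold change of -0.22 (adjusted p = 0.317, limma). *Eif2b5*, for the catalytic epsilon subunit, stood at -0.12 (adjusted p = 0.501), *Eif2b4* at -0.17 and *Eif2b3* at -0.10. *Eif2b2* was at 0.04, with 1409 to 1499.6 in WT and 1327 to 1572 in hnRNPL-deficient libraries.

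The 14 genes for eIF3, the largest initiation factor, which bridges the small subunit and eIF4F, all lay below 0, with a median of -0.24. Of all tested genes 52.7% lay below 0. Among the 14, 1 fell, *Eif3j2* (7.14%, against 7.97% of all tested genes), and 8 were lower without overlap (57.1%, against 16.3%). *Eif3j2* had 8134, 5984 and 5745.5 normalized counts in WT and 5184, 4305 and 4764 in hnRNPL-deficient libraries (log2 fold change -0.46, SE 0.15, adjusted p = 0.0777, limma). The gene no longer passed the test when any 1 of the 6 libraries was left out. *Eif3j2* also shares 84% of its windows with *Eif3j1*, the other gene for the loosely bound j subunit, so reads of the pair cannot be cleanly assigned. *Eif3j1* had 16576, 12367 and 11821 in WT and 10492, 9412 and 10672 in hnRNPL-deficient libraries, just outside the threshold (log2 fold change -0.40, adjusted p = 0.102, limma).

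*Eif3a*, for the largest core subunit, was the next nearest, with 48003, 45760.6 and 42123 normalized counts in WT and 38129, 37724 and 35578 in hnRNPL-deficient libraries. Its groups did not overlap, at a log2 fold change of -0.28 (SE 0.10, adjusted p = 0.103, limma). The peripheral subunit genes *Eif3k* and *Eif3l* were at -0.31 and -0.27 without overlap, as were the subunit genes *Eif3i* (-0.26), *Eif3c* (-0.22) and *Eif3h* (-0.21). *Eif3b*, for the other main scaffold subunit, overlapped through hnRNPL-deficient library 2 (-0.25, adjusted p = 0.296). *Eif3e*, *Eif3m* and *Eif3d* lay between -0.18 and -0.15. *Eif3g* was at -0.10 and *Eif3f* at -0.09, and the sign of *Eif3f* turned under quantile normalization (0.04), that of *Eif3g* without hnRNPL-deficient library 3 (0.01) and that of *Eif3e* without WT library 1, at 0.00021.

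The eIF5A genes had the lowest median of any group with more than 1 gene, -0.48, but neither passed the test in limma. On the reads of 5 libraries *Eif5a* passed with edgeR (adjusted p = 0.0734) and with DESeq2 (adjusted p = 0.0153). eIF5A carries the amino acid hypusine and helps ribosomes past difficult peptide bonds as well as in termination. *Eif5a* had 41728.5, 52544 and 46065 normalized counts in WT and 35259, 44289 and 27982 in hnRNPL-deficient libraries, with overlap (log2 fold change -0.40, adjusted p = 0.170, limma). *Eif5a2* had 1656, 1130.1 and 955.2 in WT and 996.2, 737 and 753.9 in hnRNPL-deficient libraries (log2 fold change -0.56, adjusted p = 0.131). *Eif4a3*, which belongs to the exon junction complex laid down at splicing, had 9894 to 10644 in WT and 7230.2 to 9008 in hnRNPL-deficient libraries, without overlap and with a log2 fold change of -0.30 (adjusted p = 0.121, limma). *Eif6*, for the factor that keeps the ribosomal subunits apart, had 2907 to 3525 and 2562 to 3464 (log2 fold change -0.11, adjusted p = 0.645).

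Levels of different genes were compared per kilobase of annotated exon. *Eif5a* was the highest in WT, at 19679.8 normalized counts per kilobase, followed by *Eif4a1* at 11740.5 and *Eif1* at 10119. The lowest detected were *Eif4ebp3* at 36.6, *Eif4e3* at 203 and *Eif5a2* at 248. Within complexes, eIF2B genes ranged from 309 for *Eif2b3* to 1468 for *Eif2b5*, and eIF3 genes from 2239 for *Eif3d* to 7816 for *Eif3h*, all in WT. *Eif2s1* and *Eif2s2* were close, at 3294 and 3118. In hnRNPL-deficient libraries *Eif5a* was at 15079 and *Eif4a1* at 9078, again the highest of the genes.

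Across 17 alternative fits, 4 of the 8 genes passed the test in each one, namely *Eif4b*, *Eif4ebp2*, *Eif1a* and *Eif5b*. The other 4, *Eif4a2*, *Eif2a*, *Eif2s2* and *Eif3j2*, were each lost in several. Fits without a mean-variance trend and with edgeR lost all 4, DESeq2 lost *Eif2a*, *Eif2s2* and *Eif3j2*, quantile normalization lost *Eif4a2*, *Eif2a* and *Eif2s2*, and equal totals lost *Eif4a2*. Of the 49 tested genes 39 kept the sign of their log2 fold change in every fit.

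**Figure D5:**
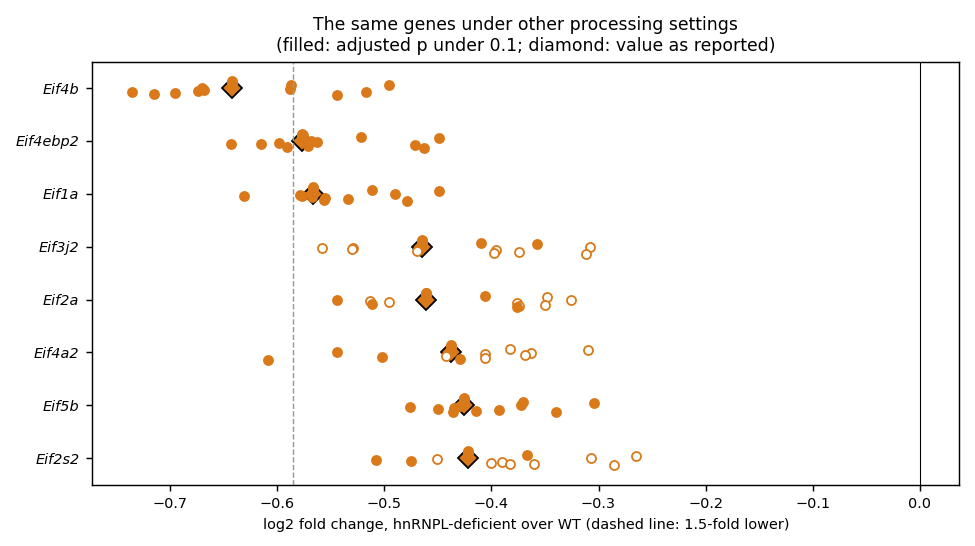
Log2 fold change, hnRNPL-deficient over WT (x axis), of the 8 genes under the reported fit (diamonds) and 17 alternatives (circles), filled where the adjusted p was under 0.1. All points lie below 0, those of *Eif4b*, *Eif4ebp2*, *Eif1a* and *Eif5b* are all filled, and the dashed line marks a 1.5-fold decrease.

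Promoters were searched for the E-box CACGTG, the letters bound by MYC with its partner MAX, in RefSeq windows from 250 bases before to 50 bases after each start site (GRCm38.p6). The motif is its own reverse complement, so both strands are covered by 1 search. Of the 38 tested initiation factor genes with a promoter sequence, 10 held it (26.3%), against 12% of 9785 tested genes and 8.09% of all 27025 genes with a window. The median log2 fold change was -0.30 for those 10 genes and -0.26 for the 28 without it, and the genes past the test numbered 0 and 6. Of the mRNA-loading genes, *Eif4e* held a pair of E-boxes, and *Eif4g1*, *Eif4a1* and *Eif4h* also held the motif. *Eif4b*, *Eif4a2*, *Eif4g3* and *Eif4e2* held none, and *Eif4g2* and *Eif4e3* had no promoter sequence. *Eif5a*, the gene with the highest level per kilobase, and *Eif5a2* each held more than 1 site. The sites of *Eif4e*, *Eif4g1*, *Eif4a1* and *Eif4h* and 1 site of *Eif5a* are shown. They are written 5′ to 3′ on the strand of the gene with 10 bases on each side, the E-box in capitals.
Eif4e, first site, chr3:138527030-138527055, plus strand: cgccagcgacCACGTGatcacttttt
Eif4e, second site, chr3:138527194-138527219, plus strand: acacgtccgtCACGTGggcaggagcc
Eif4g1, chr16:20672663-20672688, plus strand: cagtgggtgtCACGTGatggggcgga
Eif4a1, chr11:69672597-69672622, minus strand: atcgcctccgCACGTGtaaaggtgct
Eif4h, chr5:134639490-134639515, minus strand: gccgccgcacCACGTGggccgcagag
Eif5a, chr11:69921445-69921470, minus strand: ggggcggggtCACGTGtgtgcgtcat
Counted to the RefSeq start site of the window, the sites lay 228 and 64 bases before that of *Eif4e*, 54 before *Eif4g1*, 189 before *Eif4a1* and 96 before *Eif4h*. The annotated genes *Eif4e* and *Eif4g1* begin upstream of these sites, at chr3:138526179 and chr16:20668313. The remaining genes with an E-box were *Eif5a2*, *Eif3a*, *Eif3k*, *Eif3f* and *Eif1b*.

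CA repeats, which hnRNPL binds in RNA, were searched as CACACACA on the sense strand of spliced transcripts. They occurred in 12 of the 49 tested initiation factor genes (24.5%) and in 21.9% of 17589 tested genes with a transcript. Among the 8 genes that fell 2 held the repeat, *Eif5b* and *Eif2s2*. Introns were not searched.

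Of 51 further genes that act on translation, 50 were tested, with a median log2 fold change of -0.17. Of the 50, 32 lay below 0 (64%, against 52.7% of all tested genes). Without overlap, 17 were lower (34%, against 16.3%) and 6 were higher (against 17.7%). At an adjusted p under 0.1 (limma), 8 of the 50 fell (16%) and 4 rose, against 7.97% and 10% of all tested genes. At 1.5-fold, 1 was called in each direction, against 4.08% of all tested genes lower and 7.28% higher. Only 1 was called lower, *Eif2ak4*, the amino acid-sensing eIF2 kinase GCN2, with 2576, 3046 and 2802 normalized counts in WT and 1619, 1946 and 1926 in hnRNPL-deficient libraries (log2 fold change -0.62, adjusted p = 0.0135, limma). The kinase of the unfolded protein response, *Eif2ak3*, rose, by a log2 fold change of 0.37 (adjusted p = 0.0475), while *Eif2ak1* and *Eif2ak2* stood at 0.02 and -0.05. The stress response genes *Atf4* and *Ddit3* did not pass, at -0.15 and 0.52.

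Several partners of eIF4F were among those that passed. *Paip2*, an inhibitor of the poly(A)-binding protein, was the 1 gene called higher, with 3342, 2864 and 3053 normalized counts in WT and 5341, 4414 and 4456 in hnRNPL-deficient libraries (log2 fold change 0.62, adjusted p = 0.0122, limma). On the log2 scale *Pdcd4*, which inhibits eIF4A, rose by 0.48 (adjusted p = 0.0640). *Larp1*, which controls mRNAs with terminal oligopyrimidine tracts, fell by 0.52 (adjusted p = 0.0149), *Pabpc4* fell by 0.46 and *Paip2b* fell by 0.46. *Rps6kb1*, the S6 kinase that acts on eIF4B, fell by 0.29 (adjusted p = 0.0910), *Larp4* fell by 0.34, and *Mtor* stood at -0.31 (adjusted p = 0.125).

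At other steps, the scanning helicase gene *Dhx29* fell by 0.38 on the log2 scale (adjusted p = 0.0379), and the release factor gene *Gspt1* fell by 0.45 (adjusted p = 0.0244, limma), with *Etf1* at -0.42 (adjusted p = 0.127). None of the 7 elongation genes passed the test, which 7.97% of all tested genes did in the lower direction. Of the 7, 2 had an unadjusted p under 0.05 (limma), against 27.4% of all tested genes. The median of the 7 was -0.26, with 6 below 0 (85.7%, against 52.7%) and 4 lower without overlap (57.1%, against 16.3%). *Eef1d* and *Eef1b2* stood at -0.36 and -0.32. The enzymes that make hypusine on eIF5A, *Dhps* and *Dohh*, were at -0.18 and 0.10, and *Mcts2*, a reinitiation factor gene, at 0.39 with a wide spread (SE 0.36). The mitochondrial initiation factor gene *Mtif3* rose, with a log2 fold change of 0.49 (adjusted p = 0.0326), and *Mtif2* was at 0.18 without overlap between groups.

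Of these 12 genes that passed, *Eif2ak4*, *Paip2*, *Larp1* and *Gspt1* did so in all 17 alternative fits, though *Eif2ak4* and *Paip2* dropped under 1.5-fold when WT library 2 or hnRNPL-deficient library 1 was left out. *Mtif3* no longer passed without WT library 3, and *Dhx29*, *Pdcd4* and *Pabpc4* no longer passed once WT library 2 or 3, or hnRNPL-deficient library 1, was left out. *Eif2ak3* was lost without WT library 2 or 3 or hnRNPL-deficient library 2 or 3, and *Paip2b* without WT library 1 or 2 or hnRNPL-deficient library 2 or 3. *Rps6kb1* and *Larp4* were lost without any 1 of the 6 libraries.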

How the data were processed

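The deposited table held, per the labels and the study's methods, a signal for each gene and library, which the authors made from polyadenylated, strand-specific paired-end reads with fastp 0.23.1, STAR 2.7.9a on mm10, featureCounts and division by DESeq2 1.38.2 size factors. Columns of the authors' own comparison (deposited log2 fold changes, p-values, a score and other values) were not used. The values were whole multiples of 1 read in 100% of cases (tolerance 0.001 reads), which gave the depths. Since the table is normalized, limma 3.58.1 with a mean-variance trend was fitted to log2(value + 1) over all 17640 genes with a mean of at least 10, with Benjamini-Hochberg adjustment, so that fold changes of low genes are understated. edgeR 4.0.16 and DESeq2 1.42.0 were run as alternatives on the reads of 5 libraries, because 1 read in hnRNPL-deficient library 2 is worth close to 1 normalized count, a step the check for recovered reads could not use. The adjusted p under 0.1 and 1.5-fold thresholds follow the study's methods.

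The 3 libraries of a group were 1 mouse each, by the study's methods. Genes and lists were chosen with earlier results of these data known. Named with values were the members past the test, the largest changes in each direction, the core subunits of each complex, and likewise for the other translation genes. Remaining values are in ranges. All 51 genes matched GENCODE vM21 by identifier, which gave exon lengths and 100-base windows shared between transcripts. Promoters came from RefSeq (GRCm38.p6). R 4.3.3 was used and the fits were tested on simulated data. Alternatives were pseudocounts of 0.5 and 5, other filters, equal totals, quantile normalization, no trend, a replicate block, stricter thresholds and leaving out each library. At 40395186 reads or more per library, counting error is small beside the spread between mice for all but the lowest genes.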

Additional observations from a re-analysis of the deposited data

How the results depend on the processing

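With 3 mice per group, the smallest exact permutation p is 0.1, so ratios of gene pairs could not pass 0.05, and changes within the spread between mice cannot be resolved whatever the depth. Of the initiation factor genes, those called lower numbered 0 under quantile normalization and under the stricter thresholds, 2 with DESeq2 and 0 to 3 with 1 library left out, and those called higher 1 without WT library 1 and hnRNPL-deficient library 3 (*Eif4e3*). Genes past the adjusted p alone in the lower direction numbered 5 with quantile normalization and with edgeR, 4 without a trend and at an adjusted p under 0.05, and 5 to 6 with 1 library left out, and in the higher direction 1 with equal totals, 1 without those 2 libraries and 0 to 1 with 1 library left out. The edgeR and DESeq2 fits and the fit without 2 libraries were chosen after seeing the data. The groups share replicate numbers, and the labels do not say whether these mark pairs. Deviations of same-numbered libraries correlated at 0.429, 0.320 and 0.0663, and those of differently numbered libraries at -0.458 to 0.305. The main fit did not use the numbers. With the replicate number as a block, 28 members passed in the lower and 1 in the higher direction, where 16.5% of all tested genes passed in the lower direction, and 21 of the other translation genes passed in the lower direction, and 5 of 6 libraries matched best with their own number. Among the other translation genes, those called higher numbered 2 without a filter and without the 2 libraries and 0 to 2 with 1 library left out, and those called lower 0 with equal totals and with quantile normalization and 0 to 1 with 1 library left out. Without a trend 2 passed in the higher and 4 in the lower direction, and with 1 library left out 1 to 4 in the higher and 3 to 6 in the lower direction. The median of the 49 genes was -0.13 with quantile normalization and otherwise between -0.29 and -0.15.

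Signs turned for genes near 0. With equal totals *Eif4g2* was at 0.0053, and with quantile normalization *Eif4g2* was at 0.0027, *Eif3f* at 0.039, *Dohh* at -0.012 and *Atf4* at 0.0058. With edgeR *Eif4ebp1* was at -0.10, *Eif4ebp3* at -0.050 and *Dohh* at -0.10, and with DESeq2 they were at -0.12, -0.066 and -0.11. Without WT library 1 and hnRNPL-deficient library 3, *Eif4g2* was at 0.11, *Eif4ebp1* at -0.032, *Eif4ebp3* at -0.11 and *Mcts2* at -0.092. With 1 library left out, the log2 fold change ranged from -0.0033 to 0.12 for *Eif2b2*, -0.13 to 0.042 for *Eif4g2*, -0.045 to 0.16 for *Eif1b*, -0.27 to 0.00021 for *Eif3e*, -0.023 to 0.081 for *Eif2d*, -0.21 to 0.0039 for *Eif6*, -0.19 to 0.22 for *Eif4ebp1*, -0.21 to 0.013 for *Eif3g*, -0.062 to 0.39 for *Eif4ebp3* and -0.13 to 0.31 for *Dohh*. The log2 difference of the ratio ranged from -0.26 to 0.057 for *Eif4a2* to *Eif4a1*, -0.33 to 0.14 for *Eif5a2* to *Eif5a* and -0.12 to 0.11 for *Eif4g3* to *Eif4g1*. The cause was not tested.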

Other observations

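The table also held 10 entries with Eif names marked as pseudogenes, of which 8 were tested and 1 passed the test. This was *Eif4a-ps4*, with 9933, 9156 and 9252.5 normalized counts in WT and 7505, 7627 and 6574 in hnRNPL-deficient libraries (log2 fold change -0.39, adjusted p = 0.0376, limma). Its sequence covers 20.8% of the windows of *Eif4a1*, so that reads of the pair cannot be cleanly assigned. The translation termination gene *Gspt2* was under the filter, with 1.2, 0.9 and 2.3 in WT and 22.5, 8.1 and 8.2 in hnRNPL-deficient libraries, and was not tested.

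Among the Y-linked genes in the 4 libraries that express them, *Ddx3y*, like *Eif2s3y*, was lower in the hnRNPL-deficient libraries, and *Kdm5d* and *Uty* were higher. *Ddx3y* had 4148 and 4284 normalized counts in WT and 3752 and 3904 in hnRNPL-deficient libraries, while *Kdm5d* went from 2876 and 3036.5 to 3484 and 4683.5 and *Uty* from 2394 and 1921 to 2782 and 3627. With 2 libraries per group, these differences were not tested.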
